A study of Mus musculus with 9 samples.

Results

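The genes described here were 10 transcription factors of the myeloid lineage, chosen by name: the C/EBP family members Cebpa, Cebpb, Cebpd and Cebpe, together with Spi1, Gfi1, Runx1, Klf2, Klf6 and Myb. All 10 were among the 7197 genes with values, and all 10 reached the mean normalized count of 10 required for testing, as did 6673 genes in total. Neutrophils were sorted from mouse bone marrow as CD45+ CD11b+ Ly6G+ cells, and RNA was measured in 5 Rragc+/+ and 4 RragcS74N/+ libraries from mice aged 2 months. RragcS74N/+ mice carry, in heterozygosity and in every tissue, a knock-in allele that changes serine to asparagine in RagC, a GTPase that brings mTORC1 to the lysosome when nutrients are present. The allele was introduced in exon 1 together with silent base changes, the other copy of Rragc is wild type, and the labels name no treatment in either genotype. Libraries were given as separate samples of each genotype, with nothing in the labels that ties them to litters or sorting days.

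Granulocytes are made in the bone marrow from progenitors that pass through promyelocyte, myelocyte and metamyelocyte stages before they leave as segmented neutrophils. PU.1 (encoded by Spi1) and C/EBPα commit progenitors to the myeloid fate, and C/EBPε with the zinc-finger repressor Gfi1 drives the switch from primary to secondary granules. C/EBPβ takes over from C/EBPα when demand for granulocytes is high, and C/EBPδ is abundant in the last stages. Myb is a factor of dividing progenitors, and Klf2 and Klf6 are Krüppel-like factors of mature myeloid cells. The promoters below are shown because Cebpa and Cebpb were the pair of factors that varied most closely together, and Klf6 was the factor with the strongest relation to cell cycle transcripts.

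The windows hold the 250 bases upstream of the RefSeq start site in GRCm38.p6, written 5′ to 3′ on the strand of the gene. They lie at chr7:35119043-35119292 (plus strand) for Cebpa, chr2:167688665-167688914 (plus strand) for Cebpb and chr13:5861239-5861488 (plus strand) for Klf6. Capitals mark matches on either strand to CCNCNCCC, the core of the sites that Krüppel-like factors bind.
Cebpa: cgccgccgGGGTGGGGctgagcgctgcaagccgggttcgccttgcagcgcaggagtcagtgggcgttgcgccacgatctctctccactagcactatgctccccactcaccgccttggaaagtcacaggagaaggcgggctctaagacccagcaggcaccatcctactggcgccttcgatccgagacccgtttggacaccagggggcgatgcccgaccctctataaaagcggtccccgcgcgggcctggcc
Cebpb: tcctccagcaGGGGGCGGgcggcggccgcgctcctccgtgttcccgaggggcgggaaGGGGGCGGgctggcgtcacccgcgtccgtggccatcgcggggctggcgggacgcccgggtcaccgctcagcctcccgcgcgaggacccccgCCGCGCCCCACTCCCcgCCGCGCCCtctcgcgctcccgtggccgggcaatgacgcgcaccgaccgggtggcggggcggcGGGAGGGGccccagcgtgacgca
Klf6: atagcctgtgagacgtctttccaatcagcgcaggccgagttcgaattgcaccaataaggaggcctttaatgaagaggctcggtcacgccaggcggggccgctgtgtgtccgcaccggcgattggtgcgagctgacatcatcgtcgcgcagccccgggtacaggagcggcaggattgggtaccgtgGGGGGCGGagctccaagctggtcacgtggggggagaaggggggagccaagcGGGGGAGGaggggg
Of the 10 factors, 7 were matched to 9 such windows in the RefSeq table, with 2 start sites each for Gfi1 and Runx1. Cebpd, Cebpe and Spi1 were not matched. All 9 windows held CCNCNCCC, against 45.9% of 32851 windows upstream of all genes. The windows of Cebpb and Myb were richer in G and C than 99.3% of all windows, with 81.6% and 81.2% GC against a median of 52.4%, and the motif is itself made of C and G. The C/EBP motif TTGCNNAA was found in 1 of the 9 windows (Gfi1) against 9.56% of all windows, GAGGAA, a core of PU.1 sites, in 1 (Runx1) against 23.3%, TGNGGT, bound by Runx factors, in 1 (Gfi1) against 40.1%, and TAACNG, bound by Myb, in 1 (Runx1) against 19.8%. The cyclic AMP response element TGACGTCA was in 0 of the 9 windows and in 1.55% of all windows. Both strands were searched for each motif, and matches to different motifs may overlap. A match is a run of letters and not a measured binding site, and a window without a match says nothing about the factor.

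Values are read counts per gene that the authors divided by a size factor for each library, called normalized counts here. Libraries held 1214295 to 1973957 reads over the listed genes, and 1 read was worth 0.659 to 1.17 normalized counts. Rragc+/+ replicate 2, the shallowest library, stood furthest from the others, with a mean Spearman correlation of 0.901 over genes against 0.935 or more for the rest, so results that rest on it are also given without it. All 3 sorting markers were listed, and their limma differences (RragcS74N/+ minus Rragc+/+, log2 scale) were -0.16 for Ptprc (CD45), -0.09 for Itgam (CD11b) and 0.05 for Ly6g. All 9 secondary granule and all 11 mature neutrophil markers were listed, while none of 6 primary granule markers was among the rows analyzed here. Markers of other cells were also present. Hemoglobin and other erythroid transcripts summed to 1090 to 5585 normalized counts in Rragc+/+ and 378 to 2147 in RragcS74N/+ libraries. Of 6 erythroid genes tested, 5 had a lower and 1 a higher mean in RragcS74N/+ libraries, with a median log2 difference of -1.67. The 5 lower genes each had an unadjusted limma p under 0.05, against 5.81% of all genes tested. None passed adjustment (smallest adjusted p = 0.713 by limma), and the cause was not tested. Rragc itself, a gene whose total RNA does not report the base change, differed by -0.11 on the log2 scale (SE 0.18, adjusted p = 0.860 by limma).

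The 10 factors spanned a wide range of levels. Libraries primed at the 3′ end give about a read per captured transcript whatever the length, so levels are compared as normalized counts, not divided by length. Cebpd was the most abundant, with a mean of 1570 over the 9 libraries, the 99th highest of all genes listed. Spi1 (914) and Klf2 (913) followed, then Klf6 (601), Cebpb (313) and Cebpe (116). Cebpa (44.5), Runx1 (43.7), Myb (22.9) and Gfi1 (12.0) were scarce, with 4 to 98 reads per library. In this order the ranges over the 9 libraries overlapped for each pair of neighbors except Klf2 with Klf6 and Klf6 with Cebpb. The C/EBP family alone ran from Cebpd over Cebpb and Cebpe to Cebpa, and the range of Cebpd did not overlap those of the others.

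**Figure D1:**
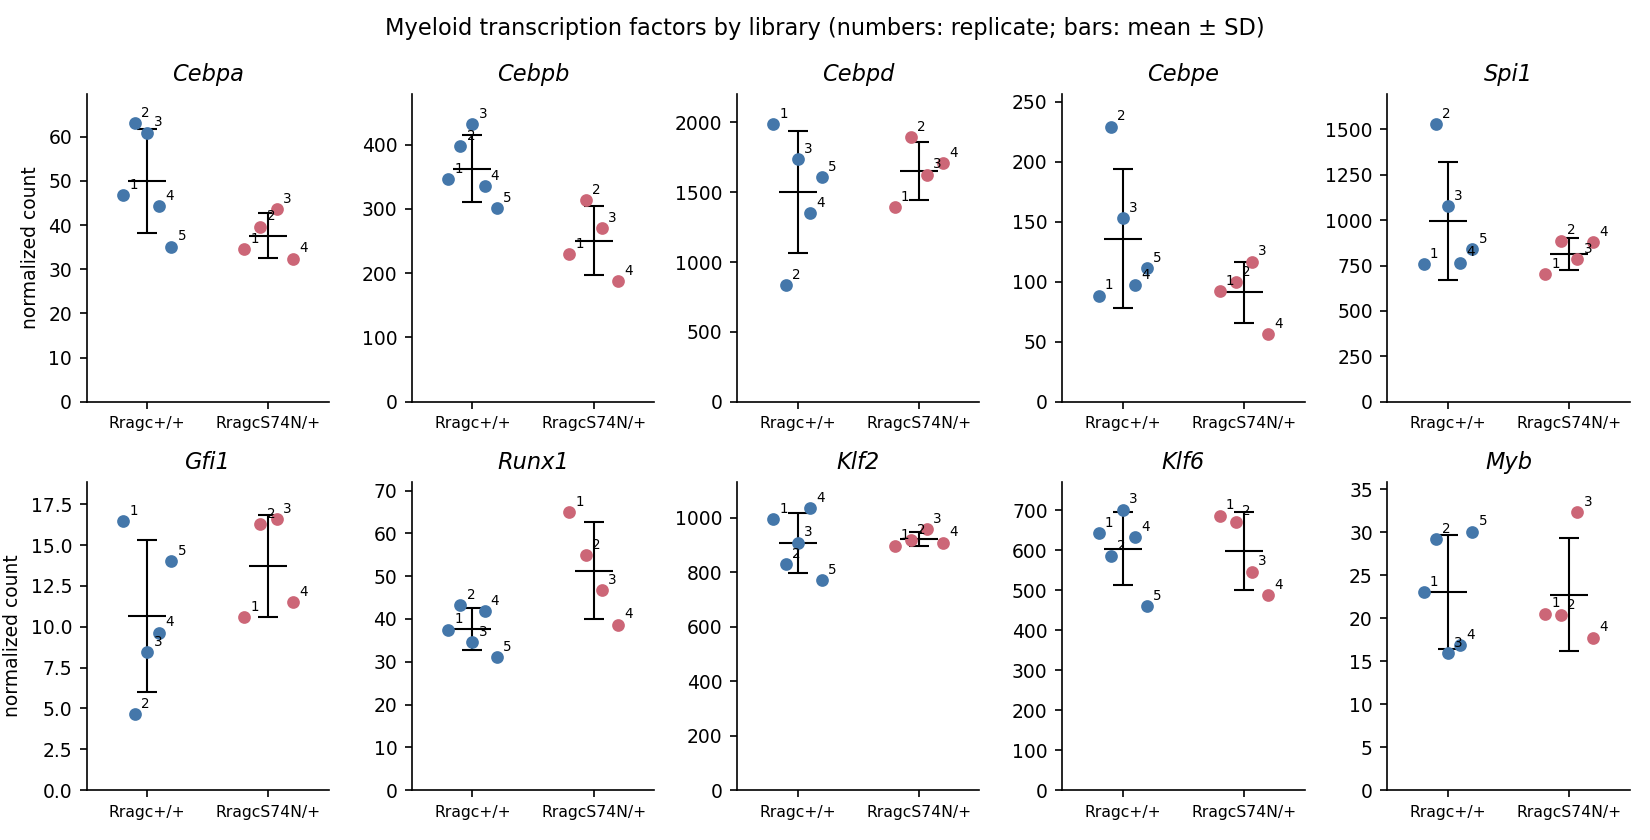
Normalized counts (vertical axis, from 0) of each of the 10 factors in the 5 Rragc+/+ and 4 RragcS74N/+ libraries, with the replicate number beside each point and horizontal and vertical bars for the mean ± SD of each genotype. The genotypes overlap for all 10 factors, Rragc+/+ replicate 2 is highest for Cebpa, Cebpe and Spi1 and lowest for Cebpd and Gfi1, and Klf2 shows the narrowest spread.

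The first question was whether the activating allele changed the level of any of these factors in neutrophils of young mice. At an adjusted p under 0.05 (limma, Benjamini-Hochberg over all genes) 0 of the 10 factors differed, and 0 of 6673 genes did, a background of 0%. At an unadjusted p under 0.05, limma called 1 of the 10 (Cebpb) against 5.81% of all genes tested, and edgeR on the recovered reads called 2 of the 10 (Cebpb and Runx1) against 6.89% of all genes. The count was also 2 with array quality weights (11.5% of all genes), and without Rragc+/+ replicate 1 (9.64%), 2 (3.01%) or 5 (13.7%) or RragcS74N/+ replicate 4 (3.33%). Cebpb was 1 of the 2 each time. The other was Cebpe without Rragc+/+ replicate 1, Cebpa without Rragc+/+ replicate 5, and Runx1 in the remaining settings. Of the factors, 6 had a lower and 4 a higher mean in RragcS74N/+ cells, and their median difference was -0.01 on the log2 scale against 0.02 for all genes tested. With 10 genes in all, a share of 1 in 10 cannot be told from the background. Because each library is a bulk of sorted cells, fewer cells with a transcript and less of it per cell cannot be told apart here.

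**Figure D2:**
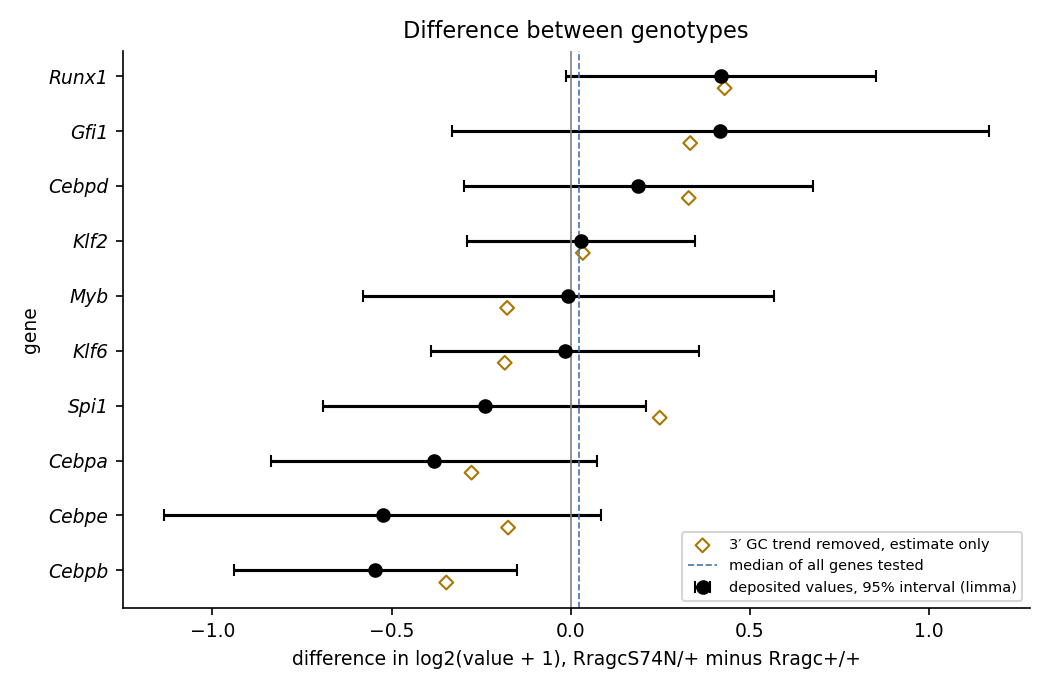
Difference in log2(value + 1) between RragcS74N/+ and Rragc+/+ (horizontal axis) for each factor (vertical axis), as black points with 95% intervals from limma, and as open diamonds after the trend on 3′ GC content was removed. The interval of Cebpb (-0.94 to -0.15) is the one that leaves out 0, and the diamond of Spi1 lies on the other side of 0 from its point.

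Among the C/EBP genes, Cebpb gave the difference with the smallest p. C/EBPβ activates genes of emergency granulopoiesis and of inflammatory responses. Normalized counts of Cebpb were 346, 398, 432, 335 and 302 in Rragc+/+ replicates 1 to 5, and 230, 314, 270 and 188 in RragcS74N/+ replicates 1 to 4. A single RragcS74N/+ library (replicate 2) lay inside the Rragc+/+ range, above the lowest Rragc+/+ library (replicate 5), and the other 3 lay below every Rragc+/+ value. Means were 363 ± 52.0 (SD, n = 5) and 251 ± 54.0 (SD, n = 4). The log2 difference was -0.55 (SE 0.18, 95% interval -0.94 to -0.15), with a limma p of 0.0103 and an adjusted p of 0.713. An exact two-sided permutation test over the 126 ways to split the libraries gave p = 0.0238, where the smallest p possible was 0.00794. The unadjusted p stayed under 0.05 in 18 of 19 alternative settings, the exception being removal of the 3′ GC trend, which gave -0.35. Of 7 monocyte markers 3 were listed (Csf1r, Ctss and Adgre1, with Ly86, Ccr2 and Irf8 among those not in the rows analyzed), and their sum was 234 to 495 in Rragc+/+ and 227 to 290 in RragcS74N/+ libraries. The part of monocytes or erythroid cells in the Cebpb difference was not tested.

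Cebpa, the factor that commits progenitors to the granulocyte and monocyte lineages, was low throughout. Its normalized counts were 46.8, 63.1, 60.9, 44.2 and 35.1 in Rragc+/+ libraries and 34.5, 39.6, 43.7 and 32.4 in RragcS74N/+ libraries. Rragc+/+ replicates 2 and 3 were the 2 highest, and Rragc+/+ replicate 5 lay among the RragcS74N/+ values. The log2 difference of -0.38 (SE 0.21, 95% interval -0.84 to 0.07) did not pass (limma p = 0.0941, adjusted p = 0.713, exact permutation p = 0.0873).

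Cebpe, which neutrophils and eosinophils need for terminal differentiation and secondary granules, showed the widest spread of the 10. Normalized counts were 88.3, 229, 153, 97.3 and 111 in Rragc+/+ libraries and 92.2, 99.6, 117 and 56.4 in RragcS74N/+ libraries. The highest value, in Rragc+/+ replicate 2, was 4.06 times the lowest, in RragcS74N/+ replicate 4, and the remaining 7 libraries lay between 88.3 and 153 in both genotypes. The log2 difference was -0.52 (SE 0.28, limma p = 0.0866, adjusted p = 0.713, exact permutation p = 0.206). It shrank to -0.31 without Rragc+/+ replicate 2, to -0.31 without RragcS74N/+ replicate 4, and to -0.17 with the 3′ GC trend removed. Of 8 eosinophil and basophil markers 6 were listed (Prg2, Epx, Ear1, Ear2, Ear6 and Siglecf). The basophil markers Mcpt8 and Cpa3 were not in the rows analyzed. The listed eosinophil markers summed to 126 to 452 in Rragc+/+ and 126 to 632 in RragcS74N/+ libraries, and their part in the Cebpe values was not tested.

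Cebpd was the one C/EBP gene with a higher mean in RragcS74N/+ cells. Normalized counts were 1986, 837, 1738, 1348 and 1606 in Rragc+/+ libraries and 1392, 1893, 1626 and 1709 in RragcS74N/+ libraries. Rragc+/+ replicate 2 was far the lowest, and the other 8 libraries lay between 1348 and 1986 with the genotypes interleaved. The log2 difference of 0.19 (SE 0.23, adjusted p = 0.798 by limma) fell to -0.01 without Rragc+/+ replicate 2.

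Spi1 encodes PU.1, the ETS-family factor on which all myeloid lineages depend. Its normalized counts were 759, 1530, 1077, 766 and 841 in Rragc+/+ libraries and 705, 888, 784 and 881 in RragcS74N/+ libraries. Rragc+/+ replicates 2 and 3 stood above all others, and the remaining libraries of both genotypes lay between 705 and 888. The log2 difference was -0.24 (SE 0.21, 95% interval -0.69 to 0.21, adjusted p = 0.744 by limma), and it was -0.07 without Rragc+/+ replicate 2. Rragc+/+ replicate 2 also had the highest monocyte marker sum, 495 normalized counts. Over the Rragc+/+ libraries the SD was 100 for Csf1r, 13.4 for Ctss and 7.10 for Adgre1, so Csf1r varied most among the listed markers. The part of monocytes in the Spi1 values was not tested. The last 500 bases of the Spi1 transcript were 64.0% GC, above 99.91% of the listed genes with a matched transcript, and with the 3′ GC trend removed the difference turned to 0.25. A trend is least well determined at such an edge, so neither sign is given weight.

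Gfi1 represses genes of the monocyte and progenitor programs during granulocyte maturation. It was the scarcest of the factors, with 4 to 25 reads per library. Normalized counts were 16.5, 4.67, 8.44, 9.65 and 14.0 in Rragc+/+ libraries and 10.6, 16.3, 16.6 and 11.5 in RragcS74N/+ libraries. The lowest 3 values were all Rragc+/+, but Rragc+/+ replicates 1 and 5 lay within the RragcS74N/+ range. The log2 difference was 0.42 (SE 0.35, 95% interval -0.33 to 1.17, adjusted p = 0.741 by limma), and 0.18 without Rragc+/+ replicate 2. The coefficient of variation over the 9 libraries was 34.5%, where counting error alone gives 30.1%, so a small change in Gfi1 was not detectable at this depth.

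Runx1, the core-binding factor that definitive blood formation depends on, had a higher mean in RragcS74N/+ cells. Normalized counts were 37.5, 43.2, 34.7, 41.8 and 31.1 in Rragc+/+ libraries and 65.0, 54.9, 46.7 and 38.7 in RragcS74N/+ libraries. The 3 highest values were all RragcS74N/+, and RragcS74N/+ replicate 4 lay inside the Rragc+/+ range. Means were 37.7 ± 5.01 (SD, n = 5) and 51.3 ± 11.3 (SD, n = 4). The log2 difference was 0.42 (SE 0.20, 95% interval -0.01 to 0.85, limma p = 0.0562, adjusted p = 0.713), and the exact permutation test gave p = 0.0476. The unadjusted p was under 0.05 in 5 of 18 alternative settings, edgeR on the recovered reads and removal of the 3′ GC trend among them. Without RragcS74N/+ replicate 1 the difference was 0.30.

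The remaining factors showed differences near 0. Klf2, which keeps leukocytes in a resting state, was the steadiest, at 994, 830, 909, 1035 and 770 normalized counts in Rragc+/+ and 898, 919, 957 and 909 in RragcS74N/+ libraries. All 4 RragcS74N/+ values lay inside the Rragc+/+ range, and the log2 difference was 0.03 (95% interval -0.29 to 0.35, adjusted p = 0.960 by limma). Klf6, induced in myeloid cells by inflammatory signals, gave 643, 584, 701, 633 and 459 in Rragc+/+ and 686, 671, 546 and 487 in RragcS74N/+ libraries. Here too the RragcS74N/+ values lay within the Rragc+/+ range, and the difference was -0.02 (95% interval -0.39 to 0.36, adjusted p = 0.984 by limma). Myb, which keeps progenitors dividing, gave 23.1, 29.2, 15.9, 16.9 and 30.1 in Rragc+/+ and 20.6, 20.3, 32.4 and 17.8 in RragcS74N/+ libraries. Values of 29 or more occurred in both genotypes, and the difference was -0.01 (95% interval -0.58 to 0.57, adjusted p = 0.996 by limma). These intervals leave room for changes in Myb larger than for Klf2, and the sign of all 3 differences turned in at least 1 setting.

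Spread between libraries was then compared with the spread that counting reads alone would give. Klf2 had a coefficient of variation of 8.75% over all 9 libraries (counting alone, 3.16%), the lowest of the 10, and Klf6 one of 14.6% (3.92%). The C/EBP genes and Spi1 varied more. Cebpe reached 42.7% (9.33%), Spi1 27.9% (3.16%), Cebpb 24.6% (5.50%) and Cebpd 21.9% (2.49%). Rragc+/+ replicate 2 held the highest value of Cebpe and Spi1 and the lowest of Cebpd. Spreads without that library were not computed, so the place of Spi1 and Cebpd above Klf6 may rest on it. For the scarce factors counting took a larger share, with 24.9% (14.5%) for Cebpa, 24.2% (14.7%) for Runx1, 26.9% (20.3%) for Myb and 34.5% (30.1%) for Gfi1.

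The second question was whether the factors rose and fell together from library to library. Pearson correlations of log2(value + 1) were computed for all 45 pairs over the 9 libraries with exact permutation p-values. None of the 45 passed Benjamini-Hochberg adjustment at 0.05, and 7 had an unadjusted p under 0.05. With Spearman's rho 1 pair passed and 1 had an unadjusted p under 0.05. The share among pairs of all genes was not computed, so these counts are not read as particular to the factors. Of the 7, 3 joined C/EBP genes with each other. Cebpa and Cebpb gave r = 0.87 (rho = 0.93, exact permutation p = 0.00278 for r and 0.000750 for rho, adjusted p = 0.0906 and 0.0337), Cebpa and Cebpe r = 0.83 (rho = 0.63, adjusted p = 0.0906 and 0.849 by the same exact permutation test), and Cebpb and Cebpe r = 0.78 (rho = 0.57, adjusted p = 0.155 and 0.849). Cebpa and Cebpb kept r = 0.79 without the 2 libraries farthest from the median of Cebpa, r = 0.80 with each genotype's mean removed, 0.83 to 0.92 with any single library left out, and 0.71 with the 3′ GC trend removed. Cebpa with Cebpe did not hold as well, at r = 0.48 without the 2 farthest libraries, Rragc+/+ replicates 2 and 3.

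Cebpd had an r of -0.42 with Cebpa, -0.23 with Cebpb and -0.65 with Cebpe, none of which had an unadjusted exact permutation p under 0.05. Without Rragc+/+ replicate 2 these were 0.26, 0.24 and -0.03. Cebpd and Gfi1 gave r = 0.85 (rho = 0.58, exact permutation p = 0.00959, adjusted p = 0.144), but r was 0.42 without Rragc+/+ replicates 1 and 2 and 0.55 without replicate 2 alone, the library lowest for both genes. Spi1 gave r = 0.75 with Cebpe, 0.71 with Cebpa and -0.78 with Gfi1 (adjusted exact permutation p = 0.166 for each). Without Rragc+/+ replicate 2 these became 0.37, 0.49 and -0.33, and with the 3′ GC trend removed -0.22, -0.63 and 0.0079. The relations of Spi1 with Cebpa and Gfi1 therefore rest on that library. Spi1 with Cebpe gave r = 0.85 without both Rragc+/+ replicate 2 and RragcS74N/+ replicate 4, so its value depended on which libraries were left out. The part of 3′ GC content in the relations of Spi1 was not tested beyond this fit, whose trend is weakly determined at the GC content of Spi1.

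**Figure D3:**
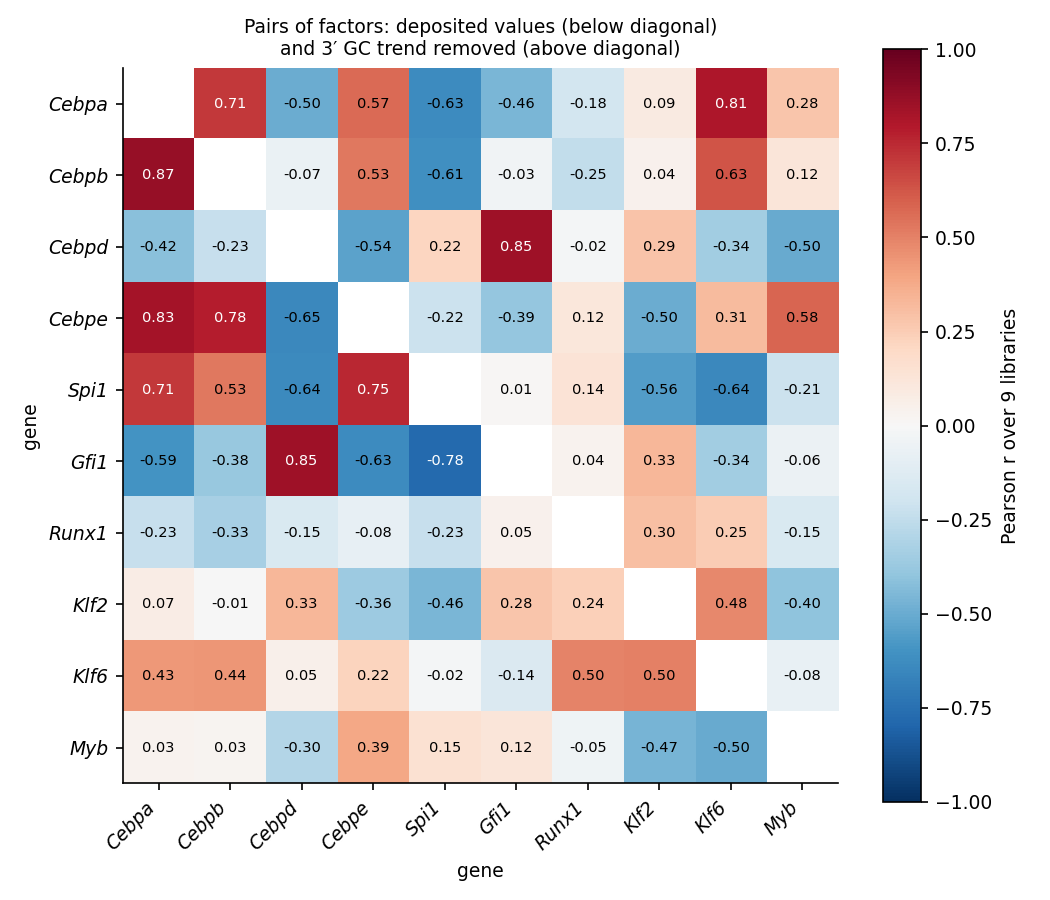
Pearson r over the 9 libraries for each pair of the 10 factors, from the deposited values below the diagonal and with the 3′ GC trend removed above it; red marks positive and blue negative r. Cebpa with Cebpb stays high on both sides (0.87 and 0.71), as does Cebpd with Gfi1 (0.85 and 0.85), while Spi1 with Cebpa turns from 0.71 to -0.63.

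The GC content of the 3′ end, from which these libraries are read, differed among the factors. Over the last 500 bases of the longest GENCODE transcript it was 64.0% for Spi1, 58.8% for Cebpe, 53.2% for Cebpb, 51.0% for Cebpd and 49.6% for Cebpa, above 77.9% or more of the matched genes. It was 45.6% for Runx1, 45.4% for Klf2, 41.0% for Gfi1, 35.2% for Klf6 and 35.0% for Myb. The 6 factors with a lower mean in RragcS74N/+ cells thus included the 4 with the highest GC apart from Cebpd, as well as the 2 with the lowest. Cebpa, Cebpb and Cebpd have a single exon, so splicing cannot separate reads of genomic DNA from those of their transcripts. Reads at the 3′ end of the other factors may also lie within a single exon, which was not examined.

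The third question was how the factors varied with stage markers, taken as the mean log2(value + 1) of the secondary granule, mature neutrophil and cell cycle lists. Such means come from bulk RNA, so the stage of the neutrophils and a presence of other cells cannot be told apart in them. Of 30 relations, 1 passed Benjamini-Hochberg adjustment over all 30. Klf6 was low where cell cycle transcripts were high. The list means parted into 6 libraries at 5.97 or less and 3 at 6.34 or more (Rragc+/+ replicate 5 and RragcS74N/+ replicates 3 and 4), and Klf6 was 584 to 701 in the former and 459 to 546 in the latter, with no overlap. Over all 9 libraries r was -0.92 (rho = -0.85, exact permutation p = 0.000824 for r and 0.00608 for rho, adjusted p = 0.0247 and 0.182). Within the 6 libraries below the gap r was -0.41 (rho = -0.49, exact permutation p = 0.424 and 0.356), so the relation rests on the 3 libraries above it. It was -0.77 without the 2 farthest libraries, -0.93 with genotype means removed (adjusted exact permutation p = 0.167), -0.85 with the 3′ GC trend removed (0.135), and -0.67 with libraries rescaled to the same total (0.476).

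**Figure D4:**
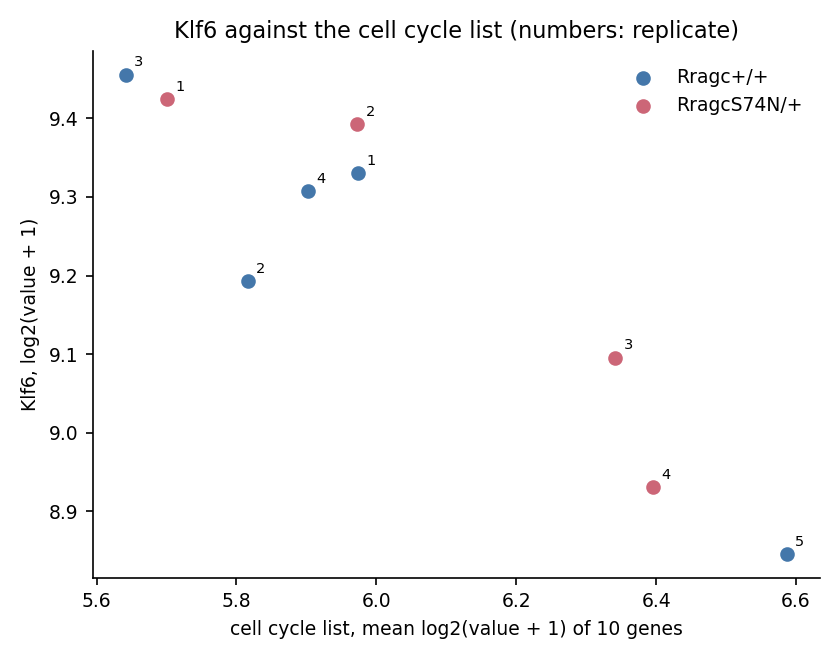
Klf6 (vertical axis, log2(value + 1)) against the mean log2(value + 1) of 10 cell cycle genes (horizontal axis) in the 9 libraries, colored by genotype with the replicate number beside each point. Rragc+/+ replicate 5 and RragcS74N/+ replicates 3 and 4 lie together at the lower right, apart from the other 6 libraries.

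All 10 cell cycle genes tested had a negative r with Klf6, from -0.81 (Ccnb1, which encodes the mitotic cyclin B1) to -0.25 (Hmgb2), with a median of -0.73. Across the 6663 tested genes outside the list, the median r with the list was -0.03. Of these, 7 (0.105%) were at or below the value of Klf6, with Klf6 itself counted among them. Within each genotype, the libraries with high cell cycle means also had more erythroid transcripts. Across genotypes this did not hold, as Rragc+/+ replicates 2, 3 and 4 (2950, 2336 and 3847) exceeded RragcS74N/+ replicates 3 and 4. Erythroid transcripts summed to 5585 in Rragc+/+ replicate 5 (1090 to 3847 in the other Rragc+/+ libraries) and to 1235 and 2147 in RragcS74N/+ replicates 3 and 4 (378 and 750 in the others). Eosinophil markers summed to 452, 217 and 632 in these 3 libraries, and to 126 to 202 in the other 6 apart from RragcS74N/+ replicate 2 (521). Their part in the relation of Klf6 was not tested. Myb, the progenitor factor, gave r = 0.49 with the cell cycle list, Gfi1 0.51, Cebpa -0.57, Cebpb -0.49 and Cebpe -0.40, none with an unadjusted exact permutation p under 0.05. The same held for the secondary granule list, where the r values of Cebpe (0.48), Cebpa (0.59), Spi1 (0.63) and Runx1 (-0.60) had adjusted p-values of 0.585 by the exact permutation test. For the mature neutrophil list r ran from -0.42 (Myb) to 0.45 (Spi1).

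The genes with the pattern most like each factor were ranked by Pearson r over the 9 libraries among about 3475 genes with a mean of 50 or more, as a description. For Klf6 they were Cxcr2 (r = 0.93), the chemokine receptor that directs mature neutrophils out of the marrow, Lilra6 (0.93) and Zmynd11 (0.93), and r with Cxcr2 was 0.98 once the 3′ GC trend was removed. Cxcr2 is also on the mature neutrophil list. With the mean of that whole list Klf6 gave r = 0.30 (adjusted exact permutation p = 0.720), and 0.30 with the 3′ GC trend removed. Cebpa ran with Tsen34 (0.98), Trappc5 (0.97) and Mfsd5 (0.97). Cebpb ran with Scnn1a (0.97), Kpna4 (0.93) and Poldip3 (0.92). Genes near Cebpe included Cic (0.95) and Ncln (0.94), and Cebpd ran with Zfp143 (0.97), Rbm38 (0.96) and Rnaset2a (0.95). Cebpd was far lowest in Rragc+/+ replicate 2, and r without that library was not computed for its neighbors. By rank their rho was 0.75, 0.73 and 0.80, and with the 3′ GC trend removed their r was 0.77, 0.97 and 0.89.

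Spi1 ran with Orai3, Cyren and Ppp1r11, each at r = 0.98, and these values became -0.04, -0.04 and -0.05 when the GC trend was removed. Gfi1 was nearest to Olfm4 (0.96), a granule protein carried by a subset of neutrophils, Cbx1 (0.96) and Hnrnpl (0.95). By rank their rho was 0.87, 0.87 and 0.90. Gfi1 had 4 to 25 reads per library and was lowest in Rragc+/+ replicate 2, and r without that library was not computed for its neighbors. Runx1 was nearest to Ttc14 (0.95), the nuclear long noncoding RNA Neat1 (0.93) and Itsn2 (0.89), and Klf2 to Pip5k1a (0.94), Stat3 (0.92) and Ccnk (0.91). Myb had the weakest neighbors, with Fcnb (0.81), which encodes a ficolin of immature neutrophils, Dnajb14 (0.79) and Pcnp (0.78). All of these genes were read from the same 9 libraries, so they share the depth and composition of each library.

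Genes whose products bind or modify these factors were examined in the same fit. Of 24 partners and corepressors, 21 were listed and 20 tested, of which 13 had a lower and 7 a higher mean in RragcS74N/+ cells, with a median log2 difference of -0.07. None passed adjustment in limma, and 3 lower and 1 higher had an unadjusted p under 0.05, against 5.81% of all genes. They included Ddit3, which encodes the dominant-negative C/EBP partner CHOP (-0.84, SE 0.29), Jund, a component of AP-1 (-1.09, SE 0.47), and Rcor1, which encodes the corepressor CoREST (0.52, SE 0.24). The adjusted p was 0.713 by limma for each of the 3. Without Rragc+/+ replicate 2 Jund differed by -0.71 and Rcor1 by 0.37, neither with an unadjusted p under 0.05. Ddit3 shrank to -0.57 there, with an unadjusted limma p still under 0.05 and an adjusted p of 0.994. With the 3′ GC trend removed Rcor1 differed by 0.32 and Ddit3 by -0.87.

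Of 39 other hematopoietic factors, 26 were listed and 24 tested, 14 with a lower and 10 with a higher mean, and a median of -0.04. Rara, the retinoic acid receptor that drives granulocyte differentiation, was the 1 gene with an unadjusted p under 0.05 (-0.53, SE 0.24, limma adjusted p = 0.713). It differed by -0.34 without Rragc+/+ replicate 2 and by -0.16 with the 3′ GC trend removed, and the unadjusted call was lost in both. Klf3, a repressor of the Krüppel-like family, differed by -0.33 and the ETS factor Fli1 by 0.28, both with an unadjusted limma p above 0.05. Klf3 was -0.16 without RragcS74N/+ replicate 4, and Fli1 was 0.15 without RragcS74N/+ replicate 1 and 0.08 with the 3′ GC trend removed.

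Products that lie downstream of C/EBPε and the other factors did not pass either. Of 9 genes on the secondary granule list, 7 had a lower and 2 a higher mean, with a median of -0.13. The list had 0 unadjusted limma p under 0.05. Values ran from -0.49 for Ltb4r1, a leukotriene receptor gene and not one of a granule protein, to 0.36 for Camp, the cathelicidin. The next lowest was Fcnb at -0.33. Without Rragc+/+ replicate 2 Ltb4r1 and Camp were -0.30 and 0.19, and without RragcS74N/+ replicate 4 they were -0.32 and 0.16. With the 3′ GC trend removed Ltb4r1 was -0.06. Of 11 mature neutrophil genes, 6 were lower and 5 higher (Stfa2l1 0.32, or 0.16 without RragcS74N/+ replicate 4, and Ccl6 -0.26, or -0.14 without RragcS74N/+ replicate 1). Of 10 cell cycle genes tested, 4 were lower and 6 higher (Ccnb2 0.56, Tubb5 -0.34). In neither list did limma give an unadjusted p under 0.05.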

How the data were processed

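Libraries were QuantSeq 3′ mRNA-Seq (oligo-dT priming, random second strands with molecular identifiers). Per the study's methods and the submitters' processing notes, the authors used TopHat2 2.0.10 against GRCm39 and stranded HTSeq 0.6.1 counting on GENCODE genes. The deposited signal values are gene read counts that the authors divided by a size factor for each library; 100% are whole multiples of the value of 1 read (tolerance 0.01 reads). Use of the molecular identifiers and the filter on listed genes are not given in the sources used here, so counting error may understate noise.

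Genotypes were compared with limma 3.58.1 (trended) on log2(value + 1) for genes with a mean of at least 10. As these are not raw counts, edgeR 4.0.16 and DESeq2 1.42.0 on the recovered reads were alternatives. Fold changes are on the log2(value + 1) scale and understate changes of scarce genes. Correlations and single genes were tested by exact two-sided permutation. The 3′ GC trend was a cubic fit in each library, chosen after seeing the data (7067 genes matched to GENCODE). Fits were tested on simulated data. All members, and up to 3 genes of each other list by limma p, are named, apart from items not reported here. Members and lists were chosen with earlier results of these data known. No libraries were counted as duplicates (lowest chi-square per degree of freedom 5.45 over 16 pairs of the same genotype). P-values measure the spread between these libraries.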

Additional observations from a re-analysis of the deposited data

How the results depend on the processing

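In all 19 alternatives of the genotype comparison, 0 of the 10 factors passed adjustment, and the number with an unadjusted p under 0.05 moved from 1 to 2 with array quality weights (2, against 11.5% of all genes) and edgeR (2, against 6.89%) and ran from 1 to 2 with a library left out (2 without Rragc+/+ replicate 1, 2 or 5 or RragcS74N/+ replicate 4, against 9.64%, 3.01%, 13.7% and 3.33% of all genes). Of 186 values for the factors, 167 stayed in the same direction with an adjusted p above 0.05 and 19 changed sign. Spi1 became 0.25 with the 3′ GC trend removed, Klf2 -0.0096 with array weights, and Myb 0.23 with array weights, 0.0020 in edgeR and 0.011 in DESeq2. With a library left out, Cebpd ran from -0.0074 to 0.30, Klf2 from -0.028 to 0.078, Klf6 from -0.11 to 0.078, Myb from -0.18 to 0.10, Rragc from -0.15 to 0.0011 and Ly6g from -0.15 to 0.18; the cause was not tested. Pairs of factors that passed rose from 0 to 1 (Cebpa with Cebpb) with libraries rescaled to the same total (1) and with Spearman's rho (1). Relations to the marker lists fell from 1 to 0 with rescaled totals (0), genotype means removed (0), rho (0) and the GC trend removed (0), and ran from 0 to 1 with a library left out (0 without Rragc+/+ replicate 3, 4 or 5 or RragcS74N/+ replicate 1, 3 or 4). With the GC trend removed, r was -0.63 for Cebpa with Spi1, -0.22 for Cebpe with Spi1 and 0.0079 for Spi1 with Gfi1. No paired analysis was possible because no replicate number links a mouse of one genotype to a mouse of the other in the labels. At a minimum mean of 50, Cebpa, Gfi1, Runx1 and Myb were not tested, and the depth of these scarce genes limits what can be seen.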
